A study of Mus musculus with 6 samples.

Results

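The enzymes that make and break down haem were followed in the mouse spleen after developmental exposure to lead (Pb). The members are 9 named genes, *Alas2*, *Alad*, *Uros*, *Urod*, *Cpox*, *Ppox*, *Fech*, *Hmox1* and *Blvrb*. They were found as the probes whose single gene symbol in the platform annotation is 1 of these names, which gave 10 probes of the 35587 on the array, and 9 of its 18069 single gene symbols. *Cpox* had 2 probes, and the other 8 genes had 1 each. The animals were BALB/c females whose spleens were taken at postnatal day 21. Of these 3 were controls and 3 had been exposed to 0.1 mM Pb since gestation day 8, with 1 single-colour CodeLink array per sample. The labels give no route of exposure, litter or pooling, so the spread between samples may not be that between independent litters. In Pb replicate 3 the deposited values run in no relation to the probes, and that array is left out, which leaves 3 control arrays and Pb replicates 1 and 2.

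Haem is built in steps shared between the mitochondrion and the cytosol. *Alas2*, the erythroid form of aminolevulinate synthase, starts the pathway, and *Alad* joins its products into porphobilinogen. *Uros* and *Urod* make and trim the porphyrin ring, *Cpox* and *Ppox* oxidise it, and *Fech* inserts the iron. *Hmox1* opens the ring of old haem and releases the iron, and *Blvrb* is a biliverdin reductase that also reduces flavins. The weanling mouse spleen still makes red cells, and its red pulp macrophages break down the haem of old ones. Lead inhibits the ALAD and FECH proteins. That is an effect on enzyme activity, which an array of transcripts does not read.

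Promoter sequences are printed for 3 members. *Alas2* was taken as the erythroid first enzyme. *Cpox* was taken as the member whose Pb arrays both lay below every control, and *Ppox* as the member whose Pb arrays both lay above. Each sequence is the 250 bases before the annotated start in RefSeq (GRCm38.p6), written 5′ to 3′ on the strand of the gene. Capitals mark matches on either strand to the GATA word AGATAA, also with T as its first letter or G as its last, the letters that erythroid GATA factors are known to bind.
Alas2, chrX:150547167-150547416, + strand: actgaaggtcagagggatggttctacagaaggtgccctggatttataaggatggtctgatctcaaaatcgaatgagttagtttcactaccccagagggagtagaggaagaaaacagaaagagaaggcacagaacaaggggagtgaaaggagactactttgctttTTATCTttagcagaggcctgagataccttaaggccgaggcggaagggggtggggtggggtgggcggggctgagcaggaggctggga
Cpox, chr16:58669958-58670207, + strand: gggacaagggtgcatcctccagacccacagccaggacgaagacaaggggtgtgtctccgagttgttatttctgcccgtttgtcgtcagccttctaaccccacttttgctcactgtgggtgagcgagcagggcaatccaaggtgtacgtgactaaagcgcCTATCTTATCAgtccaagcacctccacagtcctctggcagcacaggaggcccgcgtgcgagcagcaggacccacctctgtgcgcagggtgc
Ppox, chr1:171281187-171281436, - strand: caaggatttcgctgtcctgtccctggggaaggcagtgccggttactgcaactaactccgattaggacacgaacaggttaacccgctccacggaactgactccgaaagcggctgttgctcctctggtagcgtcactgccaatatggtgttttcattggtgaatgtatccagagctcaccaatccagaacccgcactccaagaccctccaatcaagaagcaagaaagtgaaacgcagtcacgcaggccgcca

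*Alas2* holds 1 match, whose first base lies 86 bases before the start. *Cpox* holds 2 that overlap by a single base, beginning 91 and 86 bases before it, and *Ppox* holds none in this window. RefSeq windows were found for 7 of the 9 members, 10 windows in all, and *Uros* and *Blvrb* each had a match in 1 of their 2 windows. A GATA word stood in 26.5% of all 32851 windows of this length, and 2 or more in 6.40%. The word CCACACCC (3.20% of all windows) and the word TGACNNNGC, the core of the antioxidant response element (10.2%), were found on neither strand in the 10 windows. These matches are letters in a sequence and not shown binding sites.

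Levels below are log2 intensities after correction for position on the array, where an array's median is near 0. *Alas2* (probe 270104) was at 8.28, 7.45 and 7.82 in control replicates 1, 2 and 3 and at 7.78 and 7.81 in Pb replicates 1 and 2. Both Pb arrays lay inside the range of the controls, which was the widest of the 9 members (SD 0.42, n = 3). The difference, Pb minus control, was -0.06 (SE 0.27). In a whole spleen, fewer cells of a type and less RNA per cell cannot be told apart, for this and every gene that follows.

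*Alad* (probe 182009), the step at which lead inhibits the enzyme, was at 7.70, 7.71 and 7.84 in controls and at 7.69 and 8.30 in Pb. Pb replicate 2 stood above the controls, and Pb replicate 1 lay just under the lowest of them. The difference was 0.24, a fold of 1.18 with a 95% confidence interval of 0.80 to 1.74. *Fech* (probe 113100), whose product lead also inhibits, was at 6.17, 5.85 and 6.05 in controls and at 6.0 and 6.72 in Pb. Its pattern was alike, with Pb replicate 1 within the controls and Pb replicate 2 above them. The difference of 0.34 is a fold of 1.26 with an interval of 0.81 to 1.96.

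In the middle of the pathway the Pb arrays lay on opposite sides of the controls. *Uros* (probe 54017) was at 4.12, 4.01 and 4.28 in controls, at 3.42 in Pb replicate 1 and at 4.44 in Pb replicate 2. *Urod* (probe 68072) was at 5.46, 5.50 and 5.71 in controls, at 5.10 in Pb replicate 1 and at 6.16 in Pb replicate 2. For both genes Pb replicate 1 was below every control and Pb replicate 2 above every control, with gaps between the Pb arrays of 1.02 for *Uros* and 1.06 for *Urod*. The mean differences of -0.21 (SE 0.32) and 0.07 (SE 0.33) therefore describe neither array.

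*Cpox* and *Ppox*, the neighbouring oxidation steps, were the members whose groups did not overlap, and they lay in opposite directions. *Cpox* (probe 18017) was at 6.06, 6.06 and 6.12 in controls and at 5.65 and 5.39 in Pb. After correction its controls were the tightest of the 9 members (SD 0.04, n = 3). Before correction the controls were at 6.30, 6.53 and 5.64, so the tightness came with the correction. Both Pb arrays lay below all the corrected controls. The difference was -0.56 (95% confidence interval -0.98 to -0.14), an unadjusted p-value of 0.0175 and a limma adjusted p of 0.622. *Ppox* (probe 195106) was at 3.94, 3.77 and 3.95 in controls and at 4.15 and 4.73 in Pb, so that both Pb arrays lay above all controls. The difference was 0.55 (95% confidence interval 0.003 to 1.10), an unadjusted p-value of 0.0492 and a limma adjusted p of 0.622.

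Neither *Cpox* nor *Ppox* passed the adjusted threshold of 0.05. The second *Cpox* probe (233075) was dim, at -3.11, 1.88 and -3.21 in controls and at -3.20 and -2.17 in Pb. It was under the filter on low values through 4 of the 5 arrays, with control replicate 2 far above the others, and it gives no second reading of the gene.

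On the breakdown side *Hmox1* (probe 95088) was at 5.92, 5.33 and 5.49 in controls and at 5.72 and 5.82 in Pb. Both Pb arrays lay inside the range of the controls, and the difference was 0.19 (SE 0.22). *Blvrb* (probe 114020) was at 7.17, 7.09 and 7.37 in controls and at 7.13 and 6.91 in Pb. Pb replicate 2 was under the lowest control and Pb replicate 1 within the controls, and the difference was -0.19 (SE 0.18).

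**Figure D1:**
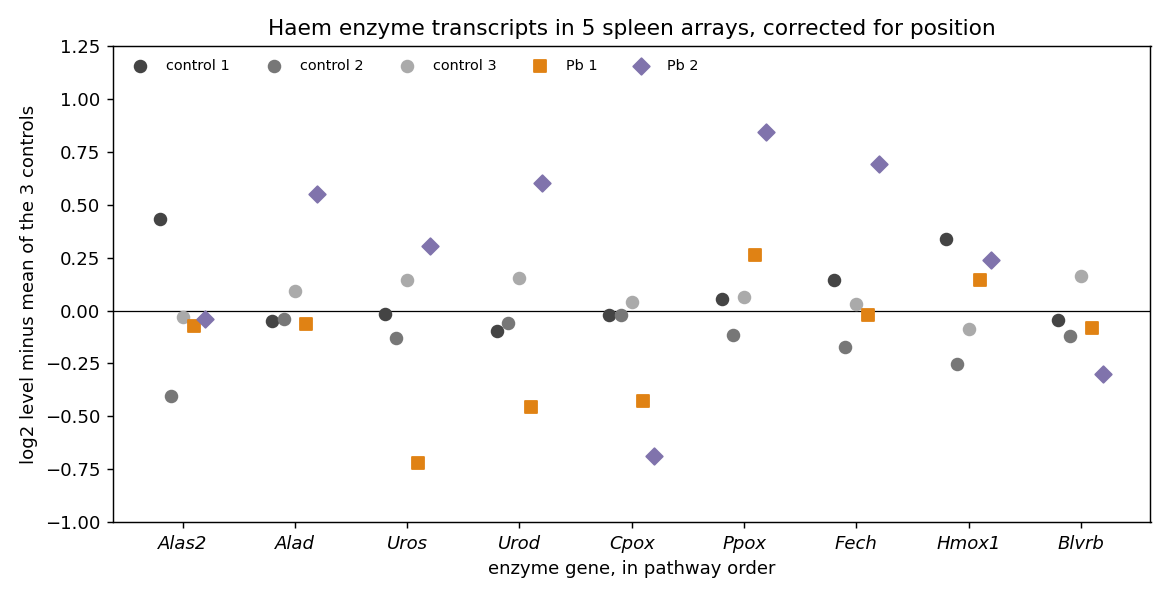
Log2 level of each of the 9 enzyme genes minus the mean of its 3 controls, 1 point per array (grey circles, controls; square, Pb 1; diamond, Pb 2), after position correction. The Pb arrays stand apart from each other for Uros and Urod, and both lie below the controls for Cpox and above them for Ppox.

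Of the 9 enzyme genes, 0 passed an adjusted p of 0.05 (limma, adjusted over all 24464 probes tested), and 0.0613% of all probes tested did. At an unadjusted p under 0.05 there were 2 members, *Cpox* and *Ppox*, against 7.18% of all probes. That count was 1 without control replicate 1 or 2 and 0 without control replicate 3. With all 5 arrays kept it was 1 with a coarser surface, without the filter, with scaling to the 75th percentile or with array weights. It was 0 with the replicate block, 2 with a finer surface or quantile normalization, and 3 with a surface that leaves out the array columns. Whether the intervals of both *Cpox* and *Ppox* leave out 0 therefore depends on the arrays kept and on the processing. The groups did not overlap for 2 members, beside 26.7% of all probes: 1 had both Pb arrays above the controls (14.0% of all probes) and 1 had both below (12.7% of all probes). The adjusted p of the members lay between 0.622 and 0.953. By their mean 5 members were higher and 4 lower in Pb, with a median of 0.07, beside a median of 0.03 over all probes tested. All 9 members were bright, between the 92.5th and the 99.8th percentile of the array, and all 9 would have passed the filter on their control mean alone.

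Taking the corrected values as given, the intervals set what these arrays could have missed. They hold no error of the position correction itself. Over the 9 members the 95% intervals reached from -0.99 (*Uros*) to 1.10 (*Ppox*) on the log2 scale. A rise of *Alas2* beyond a fold of 1.52, or of *Hmox1* beyond 1.67, lay outside its interval, and changes inside it could not be told from 0 with 3 and 2 arrays. With a surface that leaves out the array columns, the log2 difference of *Alas2* was 0.607, past the upper end of its interval at 0.605. A larger rise is therefore not excluded.

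**Figure D2:**
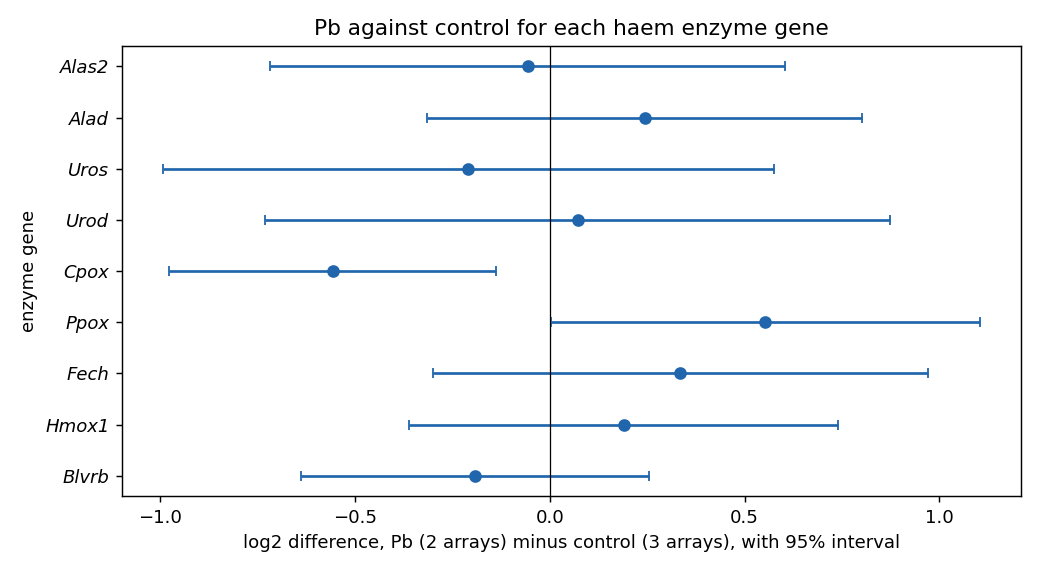
Log2 difference, Pb (2 arrays) minus control (3 arrays), with its 95% confidence interval from limma, for each enzyme gene in pathway order. The intervals of Cpox (-0.98 to -0.14) and Ppox (0.003 to 1.10) leave out 0 before adjustment, and those of the other 7 genes hold it.

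The Pb arrays differed from each other more than the controls did, and Pb replicate 2 was not part of the reference of the position correction. The gap between Pb replicates 1 and 2 was larger than the range of the 3 controls for 6 of the 9 members, *Alad*, *Uros*, *Urod*, *Cpox*, *Ppox* and *Fech*. Its median was 0.58, against a median control range of 0.28, and over all probes tested the medians were 0.37 and 0.31. Pb replicate 2 lay above Pb replicate 1 for 7 of the 9 members and for 54.2% of all probes tested. The 2 Pb arrays lay on opposite sides of the control mean for 4 members, *Alad*, *Uros*, *Urod* and *Fech*, and for 43.6% of all probes.

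Markers of red cell precursors had the same order of the Pb arrays. Of 22 erythroid genes tested, 21 were higher in Pb replicate 2 than in Pb replicate 1, and 17 had the Pb arrays on opposite sides of the control mean. The erythroid median stood at -0.24 from the control mean in Pb replicate 1 and at 0.45 in Pb replicate 2. The enzymes stood at -0.07 and 0.30. The summed intensity of the erythroid markers was 947 to 1095 in the controls, 876 in Pb replicate 1 and 1383 in Pb replicate 2. Of these genes 0 passed in limma over all probes, and 0 had an unadjusted p under 0.05. The differences ran from -0.40 for *Car1*, a carbonic anhydrase, and -0.30 for *Add2*, an adducin of the membrane skeleton, to 0.35 for the ankyrin gene *Ank1* and 0.38 for *Slc4a1*, the anion exchanger of the red cell. The part of erythroid cell number in the enzyme values was not tested.

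**Figure D3:**
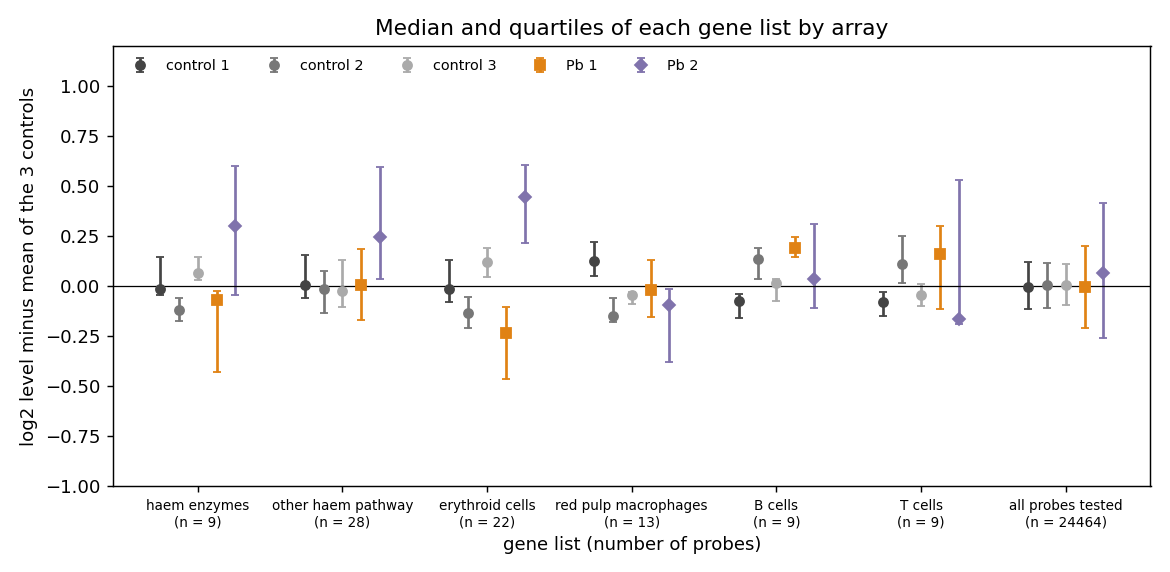
Median (points) and quartiles (bars) of log2 level minus the control mean for each gene list, by array, after position correction. Pb 2 lies above Pb 1 in the enzyme list (0.30 and -0.07), the other haem pathway list (0.25 and 0.004) and the erythroid list (0.45 and -0.24). Pb 2 lies below Pb 1 in the macrophage, B cell and T cell lists. The medians over all 24464 probes lie near 0.

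For macrophages of the red pulp, where *Hmox1* acts on haem from old red cells, 13 of 14 measured markers lay above the 30th percentile in controls. Most probes of the array lie there by definition. Their summed intensity was 352 to 422 in the controls, 396 in Pb replicate 1 and 295 in Pb replicate 2. Of the 13 tested 0 passed in limma, with 0 at an unadjusted p under 0.05 and a median difference of -0.12. *C1qa*, a complement chain, had -0.36 and *Siglec1* -0.30, while *Slc40a1*, the iron exporter ferroportin, had 0.20 and *Spic*, a transcription factor of these macrophages, had 0.23. Their part in the values of *Hmox1* was not tested.

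Markers of B and T cells were read too. All 9 measured B cell markers and all 9 measured T cell markers lay above the 30th percentile in controls. Most probes lie there by definition, as did 9 of 15 measured exocrine pancreas genes. That place does not show that the cells were present. In limma 0 of either list passed. At an unadjusted p under 0.05 there were 0 B cell and 2 T cell genes, beside 7.18% of all probes tested. *Blk* differed by 0.53, *Spib* by 0.32, *Cr2* by -0.16 and *Pax5* by -0.31, and among T cell genes *Cd3e* by 0.74, *Cd247* by 0.62, *Cd8a* by -0.26 and *Cd28* by -0.66.

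RNA of the exocrine pancreas was high in both Pb arrays. Both Pb arrays lay above the controls for all 15 measured exocrine genes, beside 14.0% of all probes tested. Only 9 of the 15 lay above the 30th percentile in controls, and the other 6 entered the test through their Pb values. For those 6 the place above the controls is therefore no support, and no count of calls is given. The summed intensity of the 15 was 16.1 to 16.7 in the controls and 191 and 256 in Pb replicates 1 and 2. Among those 6, *Amy2a5*, an amylase, was at 3.43 and 4.54 in Pb and *Try5*, a trypsin, at 4.54 and 4.85, while their controls were near the bottom of the array, where a fold has no stated error. Among the 9, *Rnase1* rose by 2.53 (limma adjusted p = 0.0188), and the colipase gene *Clps* had 1.57 (limma adjusted p = 0.101). With all 5 arrays kept, no probe of the array passed in limma once the position correction or the filter on low values was left out (0 in each case). Before correction *Rnase1* was at 3.89 and 5.50 in Pb replicates 1 and 2 and at 2.01 to 2.29 in controls. *Clps* was then at 3.59 and 2.61 in Pb and at 2.37 to 2.86 in controls. Of 9 measured liver markers 5 were tested and 0 passed in limma, with 2 at an unadjusted p under 0.05 (7.18% of all probes tested). *Tat* had 0.58, *Cyp2e1* 0.56, *Hpd* -0.08 and *Fgb* -0.49. The part of RNA from another organ in the enzyme values was not tested.

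The other genes of haem handling gave the same count. Of a list of 34 genes for isoenzymes, carriers, iron-sulphur assembly, haem export and haem sensing, 29 had a probe and 28 were tested. In limma 0 passed, and 2 had an unadjusted p under 0.05, beside 7.18% of all probes tested. By their mean 18 were higher in Pb, with a median of 0.09. Pb replicate 2 lay above Pb replicate 1 for 21 of the 28, beside 54.2% of all probes tested. The Pb pair stood over the whole control range for 5 of the 28 (14.0% of all probes tested) and under it for 1 (12.7% of all probes tested).

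The other isoenzymes of both ends of the pathway had differences of 0.21 or less. *Alas1*, the form of the first enzyme used outside the erythroid line, was at 3.67, 3.80 and 3.80 in controls and at 3.96 and 3.58 in Pb. *Hmox2*, the constitutive haem oxygenase, was at 0.79, 0.47 and 1.03 in controls and at 1.09 and 0.85 in Pb. *Blvra*, the main biliverdin reductase, was at 3.56, 3.86 and 3.94 in controls, at 3.74 in Pb replicate 1 and at 4.01 in Pb replicate 2. For these 3 genes, in that order, the differences were 0.01 (95% confidence interval -0.45 to 0.48), 0.21 (-0.34 to 0.76) and 0.09 (-0.40 to 0.58), and the groups overlapped for each.

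At the upper end of that list stood *Flvcr2*, a carrier of the family of haem exporters, with 0.81 at the probe with the higher mean, *Cd163*, the receptor that clears haemoglobin bound to haptoglobin, with 0.70, and *Pgrmc2*, a haem-binding membrane protein, with 0.61. *Flvcr2* and *Pgrmc2* had unadjusted p-values of 0.0465 and 0.0214 and a limma adjusted p of 0.622 each. A second probe of *Flvcr2* (360039), the brighter in controls, had -0.016, with Pb replicate 1 at 2.34 and Pb replicate 2 at 1.21 against 1.40 to 2.09 in controls, so the probes disagree. *Cd163* rested on Pb replicate 2, at 1.82, while Pb replicate 1 was at 0.45 and the controls at 0.30 to 0.53. At the lower end stood *Hp*, haptoglobin, with -1.06, *Hebp2* with -0.97 and *Tmem14c*, a mitochondrial porphyrin carrier, with -0.28. *Hp* was at 2.39, 2.09 and 1.77 in controls, at 2.60 in Pb replicate 1 and at -0.55 in Pb replicate 2, so its difference too came from a single array. *Hebp2* was alike, at 0.34 to 0.79 in controls, 0.90 in Pb replicate 1 and -1.80 in Pb replicate 2.

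Among 109 other genes of the lists, the patterns most like *Alas2* over the 5 arrays were those of *Mrc1*, a macrophage receptor, *Bpgm*, a red cell enzyme of glycolysis, and *Hmox1*. Their root mean square differences from it, each gene centred on its own mean, were 0.10, 0.10 and 0.15, beside an SD of 0.27 for *Alas2* itself. The most alike to *Hmox1* were *Isca1*, of iron-sulphur assembly, *Spic* and *Slc25a39*, with 0.08, 0.08 and 0.10. In both sets control replicate 1 was high and control replicate 2 low, and with 5 arrays such likeness is a description only.

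In Pb replicate 2 the correction for position was larger at each of the 9 main probes than that gene's difference between the groups. It had a median size of 2.63 and ran in size from *Ppox* (-0.81) to *Cpox* (3.62), while in Pb replicate 1 it was at most 0.66 and in the controls at most 0.49. Before correction *Cpox* was at 1.77 in Pb replicate 2 and at 5.64 to 6.53 in the controls. The 17 probes around it were low there as well, with a median of -3.09 from the control mean. *Cpox* lay further below its own controls than that median. *Alas2* was at 10.21 before correction in Pb replicate 2, and the 17 probes around it were high by a median of 2.97. After correction the median difference of the neighbouring probes lay between -0.12 (*Cpox*) and 0.11 (*Uros*) at the 9 main probes. The correction was fitted to those neighbouring probes as well, so medians near 0 are partly built in.

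**Figure D4:**
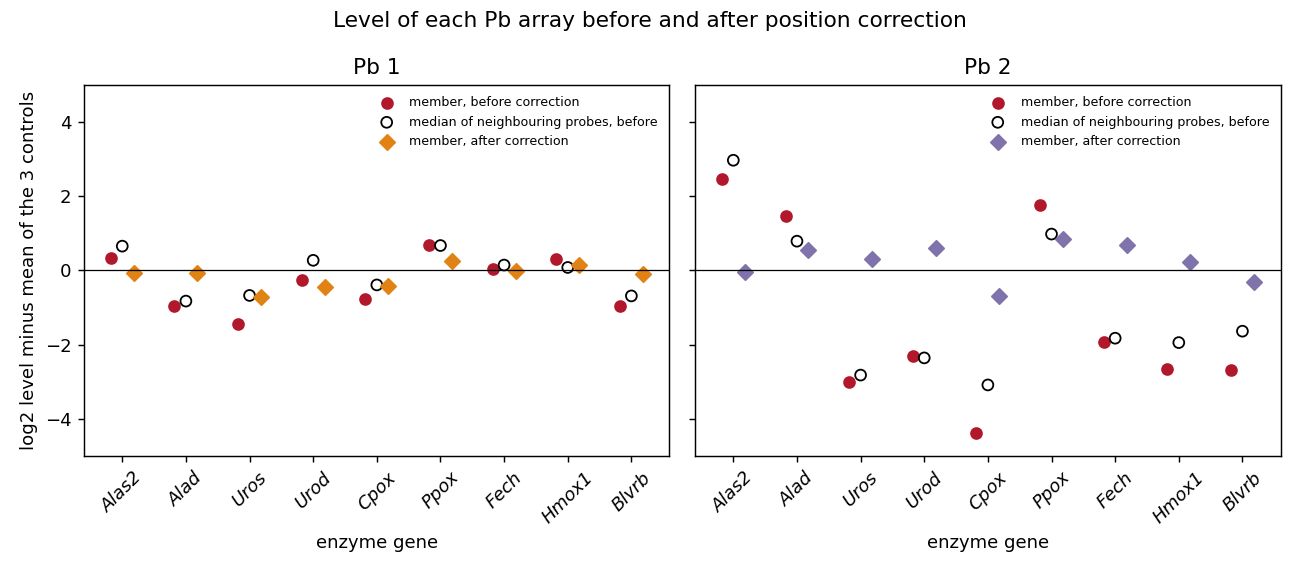
Log2 level minus the control mean in Pb 1 (left) and Pb 2 (right) for each enzyme gene before (red) and after (diamonds) position correction, with the median of the neighbouring probes before correction (open circles). In Pb 2 the uncorrected members lie with their neighbours, low for Cpox (neighbours at -3.09) and high for Alas2 (neighbours at 2.97).

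The direction of *Cpox* and *Blvrb* was the same in all 20 alternative settings and that of *Ppox* in 19, the exception being the 6 arrays as deposited (-1.35). In those 6 arrays 0 members were higher in Pb, and without position correction 3 were. The filter settings leave every difference unchanged. A kept direction in these settings therefore does not show that it is stable. In the settings that kept the correction and all 5 arrays, *Cpox* lay between -0.88 and -0.49 and *Ppox* between 0.48 and 0.82. The -0.88 is the mean of both *Cpox* probes, the dim one included, and the lowest with the main probe alone was -0.80. With Pb replicate 2 left out, *Cpox* had -0.43 and *Ppox* 0.26. With Pb replicate 1 left out they had -0.69 (limma adjusted p = 0.0588) and 0.84 (limma adjusted p = 0.0447), the sole call of a member in the 20 settings. That fit rests on the wider Pb replicate 2 as the lone Pb array, assumed to vary like the controls. With Pb replicate 2 left out *Alad*, *Urod* and *Fech* turned to -0.06, -0.46 and -0.02, and with Pb replicate 1 left out *Uros* turned to 0.30. *Alas2* turned to 0.16 without control replicate 1, to 0.61 with a surface that leaves out the array columns and to 1.40 without position correction, while *Hmox1* turned to -1.19 without position correction.

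**Figure D5:**
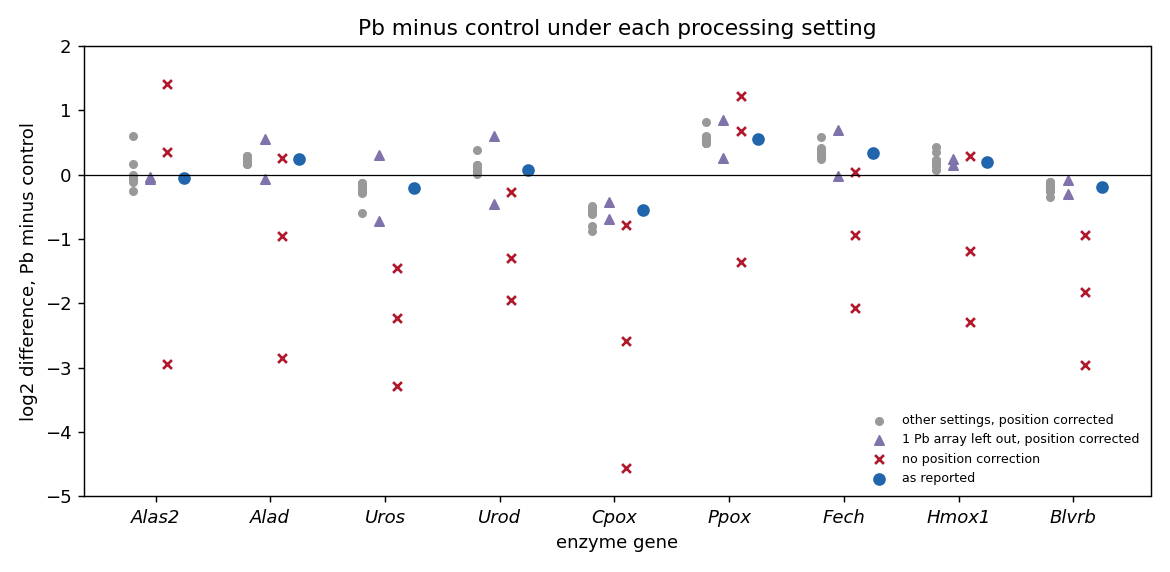
Log2 difference, Pb minus control, of each enzyme gene under each processing setting (grey, settings with position correction; triangles, 1 Pb array left out; crosses, no position correction; blue, as reported). Cpox lies below 0 in every setting, down to -4.56 in the 6 arrays as deposited, where every member lies below 0. Settings without correction spread the most.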

How the data were processed

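The authors deposited linear probe intensities, with array medians of 0.972 to 0.987. How they scanned the arrays, subtracted background and normalised is not given in the sources used here, and no detection calls were used. In each array the 151 to 711 values at or under 0 were set to percentile 1 of its positive values before log2 was taken. Pb replicate 3 (r with controls of 0.045 to 0.048, against 0.94 to 0.95 between controls) and array rows from 402 on were left out. Brightness that varied smoothly over the slide was fitted with mgcv 1.9.3 (row by level and row by column; 40 basis functions for row, 6 for level and 8 for column) and subtracted in 2 rounds, against a reference made of the controls and Pb replicate 1. Pb replicate 2 then correlated with the controls at r = 0.92, up from 0.66 to 0.67, a gain that is partly built in. limma 3.58.1 (R 4.3.3, two-sided, Benjamini-Hochberg) tested the 24464 probes with a mean at or above the 30th percentile. The number of arrays limits the precision. The code was tested on simulated data. The brightest probe stands for a gene. Named are all members, the isoenzymes, and the highest and lowest differences of each list (3 each for haem handling, 2 each for cell types). The members and lists were chosen with earlier results of these data known. Alternatives changed the correction, filter, floor, scaling, weights, arrays, block and probes. Of 21615 probes with 1 symbol, 21487 matched a RefSeq gene, and 681 with several symbols and 13291 with none were not named.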

Additional observations from a re-analysis of the deposited data

How the results depend on the processing

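Of 180 comparisons of member differences under other settings, 161 kept direction and side of the threshold, 18 uncalled differences changed sign, 1 gained a call and 0 reversed. The 15 probes past the adjusted threshold over the array became 0 without position correction, 0 without the filter, 0 in the 6 arrays as deposited, 7 with array weights, 29 in 4 uncorrected arrays without Pb replicate 2, and 2 to 2818 with 1 array left out. The count of members called, 0, became 0 to 1, and that of the other haem handling genes, 0, became 0 to 6 with 1 array left out. The upper ends came without Pb replicate 1. The members' median of 0.07 became -1.19 without position correction, 0.38 with a surface without the row by column term, -2.86 in the 6 arrays as deposited, -0.27 in the 4 uncorrected arrays, and -0.071 to 0.30 when each array was dropped in turn. Nothing in the labels pairs equal replicate numbers across groups, and the deviations of such pairs correlated at 0.03 and 0.00016. With the replicate number as a block, 7 probes and 0 members passed. Some of the 180 comparisons had their direction fixed in advance. The filter settings leave each difference unchanged, as does the mean of all probes for genes with 1 probe. The count that kept direction therefore overstates stability. The setting with 4 uncorrected arrays and the correction against the controls alone were chosen after seeing the data. The cause of these changes was not tested.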
